A study of Mus musculus with 9 samples.

Results

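Mouse cortical neurons were given 1 of 2 hairpins against Tardbp, the gene of the RNA-binding protein Tdp-43, and the arrays of these hairpins were compared with each other at a like loss of Tardbp. The arrays were chosen by their titles, shTdp-43-2 (3 arrays) against shTdp-43-1 (3 arrays), and make up 6 of the 9 arrays of the series. The other 3 arrays carry a control hairpin, shCont. They entered no test between the hairpins, and their levels are given only to place the hairpins.

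All 3 groups were primary neurons from the cortex of C57BL/6 embryos at embryonic day 15, treated with AraC from day 2, which limits dividing cells. On day 5 they received lentivirus for 4 h, carrying shTdp-43-1, shTdp-43-2 or shCont, and RNA was taken on day 11, after 6 further days. All groups, the controls included, thus received virus with a hairpin. The labels name no promoter or marker that would limit the hairpins to neurons. The labels call the cells cortical neurons, while the series' design text calls them motor neurons. Total RNA (100 ng) was put on Affymetrix mouse exon arrays, which measure single exons with small groups of probes called probe sets. Nothing in the labels says whether the replicates were separate cultures, so the p-values measure only the spread between these samples.

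Tdp-43 is a nuclear protein that binds UG-rich RNA, represses unwanted exons and helps to keep long neuronal transcripts intact. It leaves the nucleus and aggregates in neurons of most people with amyotrophic lateral sclerosis (ALS) and of many with frontotemporal dementia (FTLD). A short hairpin RNA is cut by the microRNA machinery into a guide strand that directs Argonaute to matching messages. A pair of hairpins against 1 gene shares the target and differs in guide sequence.

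Each gene was summarised by averaging the log2 values of its probe sets, and differences are shTdp-43-2 minus shTdp-43-1 on the log2 scale, where 1 is 2-fold. A gene was called at a Benjamini-Hochberg adjusted p under 0.05 in limma, a linear model that shares information on spread between genes. Median gene values lay between 8.75 and 8.92 on the 6 arrays. Over the whole table, mean levels were 6.32 to 6.33 on the shTdp-43-1 arrays and 6.24 to 6.26 on the others. Array correlations ran from 0.985 to 0.993 within a hairpin and from 0.971 to 0.985 between hairpins. Replicate 1 of shTdp-43-1 and replicate 3 of shTdp-43-2 stood at opposite ends of the second principal component (-19.7 and 19.5), which held 29.3% of the variance. The first component, with 48.8%, separated the hairpins.

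The start regions of 2 genes with large differences below, 1 in each direction, are printed first, from the RefSeq promoter table (build GRCm38.p6). Each run holds 250 bases before and 50 after the start of the gene, 5′ to 3′ on the strand of the gene. Oip5os1 lies at chr2:119594046-119594345 on the plus strand and was the named gene that fell furthest. Adgrg6 lies at chr10:14544987-14545286 on the minus strand and rose, by less than Mc4r. Capitals mark matches, on either strand, to the GC box GGGCGG and the CCAAT box CCAAT.
Oip5os1: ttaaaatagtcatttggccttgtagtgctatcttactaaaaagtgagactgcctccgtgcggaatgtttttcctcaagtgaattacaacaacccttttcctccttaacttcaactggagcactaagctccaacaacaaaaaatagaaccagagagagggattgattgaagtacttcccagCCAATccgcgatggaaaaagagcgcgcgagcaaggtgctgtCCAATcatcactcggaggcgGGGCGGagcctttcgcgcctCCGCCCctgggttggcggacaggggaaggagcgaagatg
Adgrg6: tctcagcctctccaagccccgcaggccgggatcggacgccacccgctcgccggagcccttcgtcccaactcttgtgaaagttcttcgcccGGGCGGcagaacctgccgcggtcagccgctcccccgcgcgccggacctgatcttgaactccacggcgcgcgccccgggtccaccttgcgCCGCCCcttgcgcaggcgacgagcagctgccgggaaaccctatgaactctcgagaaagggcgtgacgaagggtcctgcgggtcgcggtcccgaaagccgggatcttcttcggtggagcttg

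Oip5os1 held 2 CCAAT boxes and 2 GC boxes in this window, and Adgrg6 held 2 GC boxes. Among 13140 tested genes with a promoter entry, 58.0% held a GC box, against 64.9% of the 382 called higher and 62.6% of the 705 called lower. CCAAT boxes were in 37.6% of all, 38.5% of those higher and 37.3% of those lower. The AP-1 site TGANTCA was in 5.71%, 7.59% and 5.25% in the same order, the cAMP response element TGACGTCA in 2.79%, 1.57% and 3.69%, and the TATA box TATAAA in 8.46%, 9.42% and 6.10%. The windows of Tspan2 and Map7d2, next after Oip5os1 by size of drop, held no match to any of these motifs. The shares are descriptions of 300-base windows, and no site was shown to be used.

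Tardbp was lower with both hairpins than in control, and the hairpins did not differ in it beyond their spread. Its gene value was 7.84, 8.23 and 8.55 on the shTdp-43-1 arrays and 8.22, 8.58 and 7.90 on the shTdp-43-2 arrays. The control arrays read 9.77, 9.94 and 10.06. Hairpin arrays overlapped each other and lay below every control array. The mean with shTdp-43-1 was 30.4% of the control mean, and with shTdp-43-2 it was 30.9%. The difference between hairpins was 0.03 (SE 0.20, 95% interval -0.42 to 0.47, adjusted p = 0.963). In ratio terms, the level with shTdp-43-2 was 102% of that with shTdp-43-1, with an interval of 74.9% to 139%. The arrays thus leave room for a difference of about that width.

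The 16 probe sets of Tardbp gave the same picture along the gene. All 16 were below control with either hairpin. Between the hairpins, 9 were higher and 7 lower with shTdp-43-2, with differences from -0.43 to 0.44. None was called for a change of its own against the rest of the gene (lowest adjusted p = 1).

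**Figure D1:**
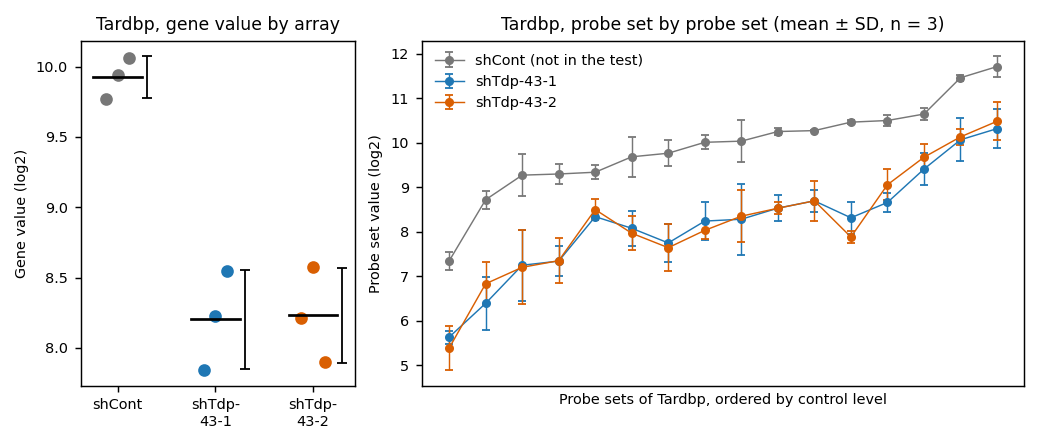
Left, the log2 gene value of Tardbp on each of the 9 arrays, with group means as bars and SD as whiskers (n = 3). Right, mean ± SD of each of its 16 probe sets, ordered by control level. Both hairpin groups lie below the control group at all 16 probe sets, and the hairpins differ from each other by -0.43 to 0.44.

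At this loss of Tardbp, 1349 of 16770 genes (8.04%) differed between the hairpins. Of these, 484 were higher with shTdp-43-2 (2.89% of genes tested) and 865 were lower (5.16%). The 3 arrays of one hairpin did not overlap the 3 of the other for any of the 1349, while 4681 genes (27.9%) did not overlap among all tested. Differences were moderate, with a median size of 0.52 among called genes, and 69 genes reached 2-fold, 29 higher and 40 lower. The split by direction depended on how the arrays were scaled. Over all genes the median difference was -0.03 as deposited, and centring each array on its median turned the split to 787 higher and 785 lower. Quantile normalization gave 823 and 974.

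Single arrays moved this count. It fell to 473 without replicate 3 of shTdp-43-1, 592 without replicate 1 of shTdp-43-2, 727 without replicate 2 of shTdp-43-1 and 868 without replicate 2 of shTdp-43-2. Without both arrays at the ends of the second component it was 2285, with 1180 higher and 1105 lower. The 30 genes described next by size were called in each of 16 alternative analyses.

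**Figure D2:**
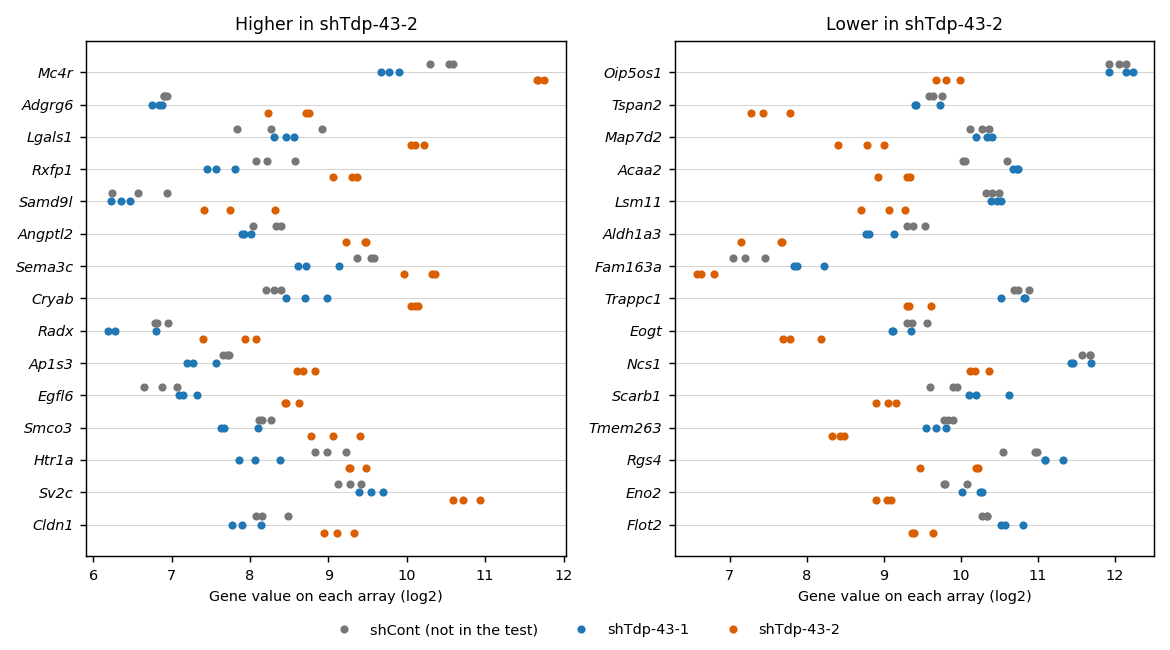
Log2 gene value on each array for the 15 genes called higher (left) and the 15 called lower (right) with shTdp-43-2 by size of difference. In each row the 3 shTdp-43-2 arrays (orange) stand clear of the 3 shTdp-43-1 arrays (blue), with control arrays (grey) shown for position only.

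Genes lower with shTdp-43-2 were led by a long noncoding RNA. Oip5os1, also known as Cyrano, is a conserved noncoding transcript that triggers the decay of the microRNA miR-7. It read 12.23, 11.93 and 12.15 with shTdp-43-1 and 9.81, 10.00 and 9.69 with shTdp-43-2. It was 4.83-fold lower (difference -2.27, SE 0.12, adjusted p = 3.39e-05), from 3 probe sets. Control arrays were at 12.15, 12.05 and 11.93, within the range of shTdp-43-1 and above every shTdp-43-2 array. Its start region is the first printed above.

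Tspan2 and Map7d2 were next by size. Tspan2, a tetraspanin of membrane domains, read 9.73, 9.42 and 9.40 with shTdp-43-1 and 7.28, 7.78 and 7.44 with shTdp-43-2, a 4.05-fold drop (SE 0.14 on the log2 scale, adjusted p = 0.000309). Map7d2, a microtubule-associated protein that recruits kinesin-1, went from 10.20, 10.34 and 10.41 to 8.40, 9.0 and 8.78 (3.0-fold lower, adjusted p = 0.00066). The smallest difference of the 15 was that of Flot2, a scaffold of membrane rafts, at 10.81, 10.57 and 10.53 against 9.37, 9.65 and 9.40 (2.24-fold lower, adjusted p = 0.000794). In all 3 genes every shTdp-43-2 array was below every control array too.

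Signalling genes of neurons followed. Ncs1, a calcium sensor of nerve terminals, read 11.70, 11.46 and 11.44 with shTdp-43-1 and 10.12, 10.37 and 10.19 with shTdp-43-2 (difference -1.31, SE 0.11, adjusted p = 0.000481). Rgs4, which shortens G protein signals, read 11.10, 11.33 and 11.10 against 9.47, 10.22 and 10.19 (difference -1.21, SE 0.18, adjusted p = 0.0051). The spread with shTdp-43-2 was wider for Rgs4 with 1 array lower than the other two, yet the groups stayed apart.

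Metabolic enzymes and carriers made up another share of the 15. Eno2, the neuronal enolase of glycolysis, read 10.28, 10.25 and 10.02 against 8.90, 9.10 and 9.05 (2.25-fold lower, adjusted p = 0.000654). Acaa2, a thiolase of mitochondrial fatty acid oxidation, read 10.73, 10.74 and 10.67 against 8.93, 9.34 and 9.31 (2.87-fold lower, adjusted p = 0.00036). Scarb1, a receptor for high-density lipoprotein, was 10.63, 10.20 and 10.11 against 9.06, 9.16 and 8.90 (2.42-fold lower). Aldh1a3, which makes retinoic acid from retinaldehyde, was 9.14, 8.77 and 8.81 against 7.14, 7.68 and 7.67 (2.65-fold lower). For Aldh1a3 both hairpins were below the control arrays (9.31 to 9.53), and shTdp-43-2 was further below.

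The remaining 5 of the 15 were Lsm11, a protein of the U7 particle that processes histone messages (difference -1.45, SE 0.14), Trappc1, a subunit of a vesicle-tethering complex (-1.31, SE 0.12), Eogt, which adds O-linked GlcNAc to EGF domains (-1.31, SE 0.14), Tmem263 (-1.26, SE 0.10) and Fam163a (-1.31, SE 0.12). Their adjusted p-values were 0.00036 to 0.0012. Fam163a had another pattern against control than the other 4. It read 8.23, 7.84 and 7.88 with shTdp-43-1, above the controls at 7.04, 7.20 and 7.46, and 6.63, 6.80 and 6.57 with shTdp-43-2, below them.

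Genes higher with shTdp-43-2 were led by receptors. Mc4r, the melanocortin receptor known for its part in feeding, read 9.67, 9.90 and 9.78 with shTdp-43-1 and 11.66, 11.68 and 11.75 with shTdp-43-2. It was 3.77-fold higher (difference 1.91, SE 0.09, adjusted p = 3.39e-05), from 3 probe sets. The control arrays, at 10.59, 10.55 and 10.29, lay between the hairpins. Rxfp1, the relaxin receptor, showed the same order, with 7.81, 7.45 and 7.57 for shTdp-43-1, 8.57, 8.21 and 8.08 for control and 9.30, 9.37 and 9.06 for shTdp-43-2 (3.09-fold between hairpins, adjusted p = 0.000342).

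Adgrg6, an adhesion G protein-coupled receptor known from Schwann cell myelination, read 6.88, 6.75 and 6.84 with shTdp-43-1 and 8.75, 8.72 and 8.23 with shTdp-43-2. It was 3.35-fold higher (SE 0.14 on the log2 scale, adjusted p = 0.00036), and control arrays (6.90 to 6.93) were close to shTdp-43-1. Its start region is the second printed above. Htr1a, an inhibitory serotonin receptor, read 8.38, 8.06 and 7.87 against 9.48, 9.28 and 9.26 (2.36-fold higher, adjusted p = 0.00139). For Htr1a the controls (8.83 to 9.22) were nearer to shTdp-43-2.

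Secreted and matrix-binding proteins formed a further group among the 15. Lgals1, the galactoside-binding galectin-1, read 8.46, 8.57 and 8.31 with shTdp-43-1 and 10.11, 10.05 and 10.22 with shTdp-43-2 (3.21-fold higher, adjusted p = 8.77e-05). The controls were at 8.27, 7.83 and 8.92. Sema3c, a secreted axon guidance cue, read 9.14, 8.61 and 8.71 against 10.32, 10.36 and 9.96 (2.63-fold higher, adjusted p = 0.00155). Angptl2, a secreted angiopoietin-like protein, was 8.01, 7.89 and 7.92 against 9.48, 9.46 and 9.22 (2.72-fold higher), and Egfl6, a secreted protein with EGF repeats, was 7.09, 7.32 and 7.15 against 8.45, 8.62 and 8.44 (2.50-fold higher).

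Of the other 7, Cryab, a small heat shock protein, rose in the same way, from 8.98, 8.70 and 8.46 to 10.14, 10.11 and 10.05 (2.61-fold, adjusted p = 0.00066). Sv2c, a glycoprotein of synaptic vesicles, went from 9.70, 9.39 and 9.54 to 10.94, 10.71 and 10.59 (2.31-fold, adjusted p = 0.000873). In Lgals1, Cryab, Egfl6 and Sv2c both hairpin means were above the control mean, and shTdp-43-2 was the higher. Samd9l, an interferon-inducible gene, was at 6.36, 6.23 and 6.47 against 8.31, 7.74 and 7.41 (2.77-fold, adjusted p = 0.00282), from 3 probe sets. Radx, which acts at replication forks (1.38, SE 0.20), Ap1s3, an adaptor subunit of vesicle coats (1.35, SE 0.12), Smco3 (1.28, SE 0.17) and Cldn1, a tight junction protein (1.19, SE 0.13), completed the list on the log2 scale, with adjusted p-values of 0.00056 to 0.00403.

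The control arrays placed called genes in several ways, given here as a description with no test. Among genes higher with shTdp-43-2, the control mean was between the hairpins and nearer to shTdp-43-1 for 178, between and nearer to shTdp-43-2 for 125, below both for 137 and above both for 44. Among genes lower with shTdp-43-2, the control mean was above both hairpins for 416, below both for 43, and between them for the rest, nearer to shTdp-43-1 for 294 and nearer to shTdp-43-2 for 112. With shTdp-43-1, 708 of the 1349 called genes (52.5%) lay within 0.2 of their control mean, and with shTdp-43-2 248 did (18.4%). Over all genes tested the same shares were 66.1% and 61.7%.

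In some called genes shTdp-43-1 lay apart from control and shTdp-43-2 lay near it. These 6 examples were chosen after their values were seen. Emp1, a membrane protein of the Pmp22 family, read 7.32, 7.72 and 7.34 with shTdp-43-1, 8.82, 8.65 and 8.30 with shTdp-43-2 and 8.99, 8.64 and 8.42 in control. Sparc, a glycoprotein that binds collagen, read 10.70, 10.79 and 10.54, then 11.55, 11.50 and 11.54, and 11.58, 11.42 and 11.60 in control. For both, shTdp-43-1 was the group apart and was lower.

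The opposite position was seen for Sprn, a relative of the prion protein, and for Dgkg, a diacylglycerol kinase. Sprn read 11.18, 10.92 and 10.74 with shTdp-43-1, 10.09, 10.06 and 10.01 with shTdp-43-2, and 9.94 to 10.03 in control. Dgkg read 9.79, 9.65 and 9.66, then 8.71, 9.05 and 8.72, and 8.75 to 8.92 in control. Cpd, a carboxypeptidase of the secretory pathway, and Chrna3, a nicotinic receptor subunit, were placed alike, with differences between the hairpins of -0.90 (SE 0.13) and -0.91 (SE 0.20).

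Functions were compared through 52 gene lists, 8 of cell type markers and 44 of cell functions. They name 1508 genes, of which 1384 were tested and 110 were called. The share called was above the 8.04% of all genes in 26 lists. Lower genes outnumbered higher ones in 31 lists, higher ones outnumbered lower in 8, both were equal in 4, and 9 lists had no called gene, so the majority in most lists ran the same way as the deposited scale as a whole. A list is described by its counts and its median difference, beside -0.03 for all genes, and no list was tested as a set. In a short list a single gene moves the share called far from 8.04%. Of 91 listed genes named by rule, 35 were called in all 16 alternatives. The others lost their call in some: 50 of the 91 without replicate 3 of shTdp-43-1, 39 without replicate 1 of shTdp-43-2, 35 without replicate 2 and 23 without replicate 1 of shTdp-43-1, and 29 without replicate 2 and 21 without replicate 3 of shTdp-43-2. None of the 91 changed sign in any of the 16 alternatives. Where a listed gene below did not keep its call throughout, the number of alternatives that kept it is given.

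**Figure D3:**
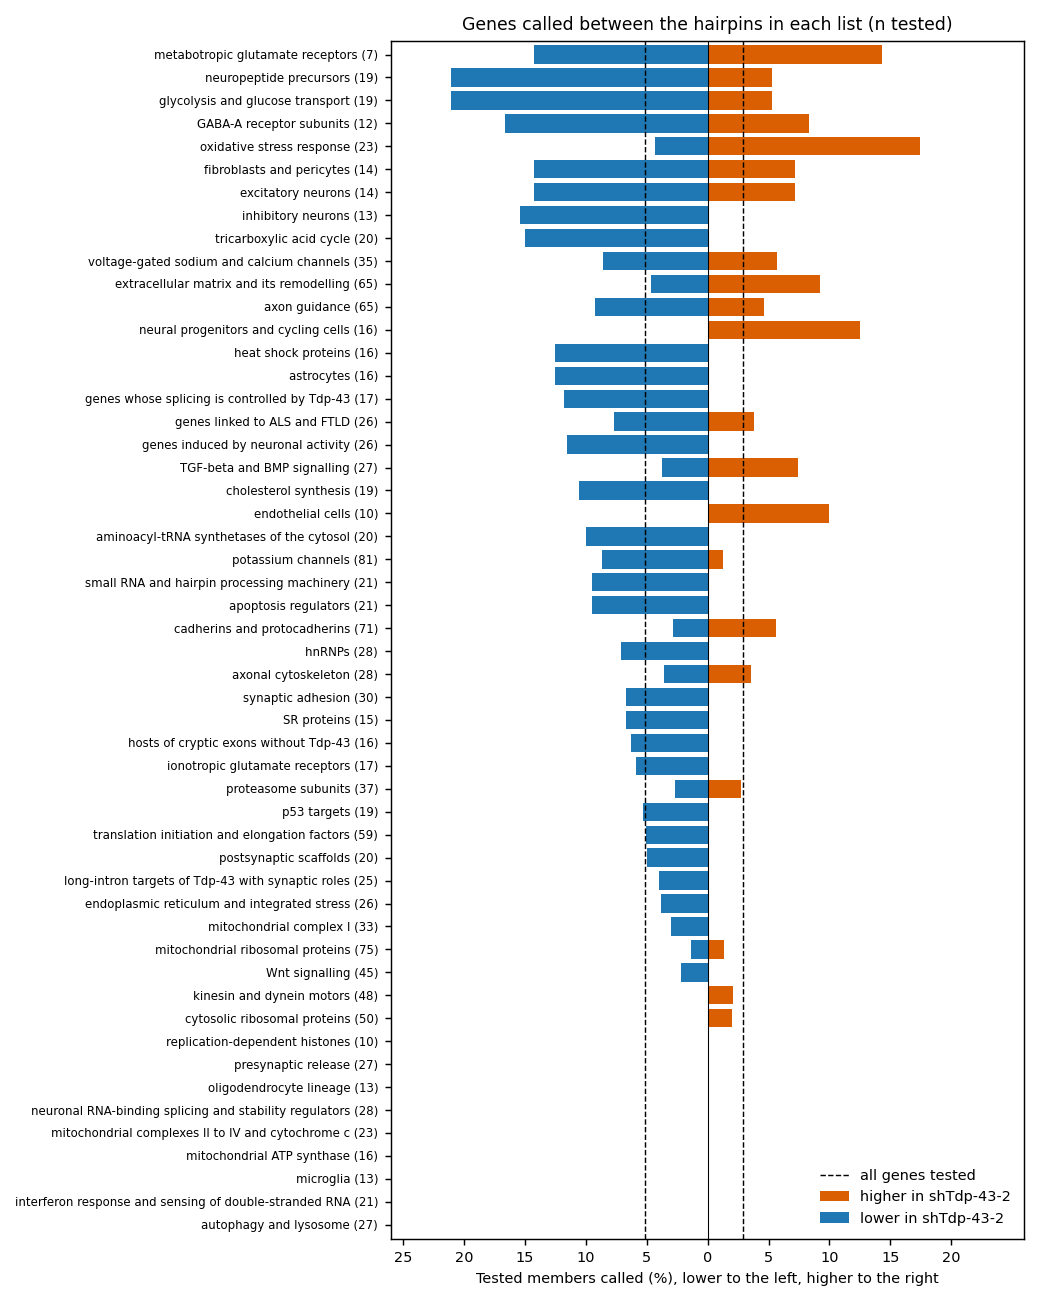
Share of tested genes called in each of the 52 lists, with genes lower with shTdp-43-2 to the left (blue) and higher to the right (orange), and the number tested in brackets. Dashed lines mark the shares over all genes tested, 5.16% lower and 2.89% higher.

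Ion channel genes were called in both directions, beside 865 lower and 484 higher among all genes as deposited. Of 81 potassium channel genes tested, 7 were lower and 1 was higher with shTdp-43-2 (9.88% against 8.04% of all genes, median -0.09). Kcnc2, a fast delayed rectifier of the Kv3 family, read 9.30, 9.14 and 9.08 with shTdp-43-1 and 8.37, 8.40 and 8.29 with shTdp-43-2 (difference -0.82, SE 0.09, adjusted p = 0.00157). Kcnip2, a partner of A-type channels, differed by -0.72 (SE 0.11), Kcnt1, a sodium-activated channel, by -0.60 (SE 0.10), and Kcnf1, a silent modulatory subunit, by -0.58 (SE 0.11). Of 35 sodium and calcium channel genes, 3 were lower and 2 were higher (14.3%, median -0.05). Scn3b, a sodium channel beta subunit, read 11.41, 11.34 and 11.21 against 10.18, 10.44 and 10.29 (difference -1.02, SE 0.10, adjusted p = 0.000873). Cacna2d1, the α2δ subunit of calcium channels, read 10.80, 10.57 and 10.79 against 9.50, 9.97 and 9.66 (-1.01, SE 0.13, adjusted p = 0.00256). Cacna1h, a T-type calcium channel, was lower (-0.49, kept in 14 of 16 alternatives), and Cacng2, also a trafficking protein of AMPA receptors, was higher (0.53, kept in 10).

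Called members were 25% of GABA-A receptor subunits and 28.6% of metabotropic glutamate receptors, both short lists, against 8.04% of all genes. They were 5.88% of ionotropic glutamate receptors and 5% of postsynaptic scaffolds. Among 12 GABA-A receptor subunits, Gabrg1 (-0.81, SE 0.12) and Gabrg3 (-0.50, SE 0.09) were lower and Gabrd was higher (0.41, kept in 11 of 16). Among 7 metabotropic glutamate receptors, Grm2 was lower (-0.56, kept in 14) and Grm8 higher (0.66, kept in 10). Among 17 ionotropic glutamate receptors 1 was called, Grin2d (-0.50, kept in 8). Postsynaptic scaffolds and their partners had 1 call in 20, the kinase Camk2a (-0.38, kept in 5). Presynaptic release genes had 0 calls in 27, with differences from -0.35 to 0.33.

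Neuropeptide precursors were lower in 4 and higher in 1 of 19 tested (26.3% against 8.04% of all genes, median -0.17). Sst, the precursor of somatostatin, read 10.60, 10.44 and 10.16 with shTdp-43-1 and 9.25, 9.15 and 9.37 with shTdp-43-2 (difference -1.14, SE 0.12, adjusted p = 0.00139). The control mean was 10.56, near shTdp-43-1. Vip read 7.84, 8.06 and 7.87 against 6.98, 7.32 and 7.29 (-0.73, SE 0.12, adjusted p = 0.00603), and Nts, the neurotensin precursor, was lower (-0.71, kept in 12 of 16). Scg2, secretogranin II of dense-core vesicles, went the other way, at 10.31, 10.49 and 10.34 against 11.11, 11.25 and 10.97 (0.73, SE 0.10, adjusted p = 0.00365, kept in 15). Genes induced by neuronal activity had 3 lower of 26 (11.5%, median -0.21), namely Vgf (-0.59, kept in 8), Egr3 (-0.52, kept in 6) and Fosl2 (-0.46, kept in 9).

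Genes that guide axons differed in both directions, with 6 lower and 3 higher of 65 (13.8% against 8.04% of all genes, median 0.05). Beside Sema3c, Sema3e was higher (0.74, SE 0.13, kept in 13 of 16). The ephrin receptors Epha4 (-0.86, SE 0.14, adjusted p = 0.00657) and Epha6 (-0.86, SE 0.15, kept in 15) were lower, Epha4 reading 11.22, 10.75 and 11.01 against 10.18, 10.30 and 9.92. Cadherins and protocadherins had 4 higher and 2 lower of 71 (8.45%). Cdh6 read 10.94, 10.39 and 10.55 against 11.74, 11.71 and 11.57 (1.05, SE 0.14, adjusted p = 0.0027), Cdh4 was also higher (0.53, kept in 13), and Cdh9 (-0.60, kept in 11) and Pcdh20 (-0.57, kept in 7) were lower. Synaptic adhesion genes had 2 lower of 30 (6.67%), Slitrk5 (-0.50, kept in 10) and Ptprd (-0.34, kept in 4).

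Among 28 genes of the axonal cytoskeleton, 1 rose and 1 fell (7.14% against 8.04% of all genes). Prph, the intermediate filament peripherin, read 8.29, 8.21 and 8.05 against 8.84, 8.98 and 8.90 (0.73, SE 0.10, adjusted p = 0.00287). Dpysl5, a collapsin response mediator, read 12.08, 11.97 and 12.01 against 11.23, 11.35 and 11.24 (-0.75, SE 0.09, adjusted p = 0.00165). Of 48 kinesin and dynein genes 1 was called (2.08%), Kif26b (0.69, kept in 14 of 16).

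Extracellular matrix genes had 6 higher and 3 lower of 65 (13.8% against 8.04% of all genes), with a median of 0.01. Thbs1, a secreted thrombospondin, read 9.13, 8.78 and 8.96 with shTdp-43-1 and 10.17, 9.85 and 9.67 with shTdp-43-2 (0.94, SE 0.14, adjusted p = 0.00458). Thbs2 read 7.04, 6.94 and 6.85 against 8.18, 7.85 and 7.58 (0.93, SE 0.14), and Col12a1, a fibril-associated collagen, 7.13, 6.84 and 6.91 against 8.10, 7.99 and 7.61 (0.94, SE 0.14). Control means were 9.63 for Thbs1, 6.89 for Thbs2 and 7.68 for Col12a1, so only Thbs2 had its control mean at the level of shTdp-43-1. Dcn, the proteoglycan decorin, was lower, at 10.16, 10.15 and 10.10 against 9.19, 9.42 and 9.22 (-0.86, SE 0.09, adjusted p = 0.00152). TGF-beta and BMP genes had 2 higher and 1 lower of 27 (11.1%). The ligand Tgfb2 (0.61, SE 0.10, adjusted p = 0.00564) and its receptor Tgfbr1 (0.61, SE 0.10, adjusted p = 0.00581) were higher, and the target Id2 was lower (-0.47, kept in 11 of 16). Among 45 Wnt genes 1 was called (2.22%), Sfrp1, a secreted inhibitor (-0.52, kept in 9).

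Cell type markers were described in the same way, and some of them are also on the lists above. Called members were 21.4% of fibroblast and pericyte markers and 12.5% of astrocyte markers, against 8.04% of all genes. Fibroblast and pericyte markers, which include Thbs1 and Dcn, had 1 higher and 2 lower of 14, the third being Rgs5 (-0.43, kept in 7 of 16). Their mean log2 level over the list was 8.03 to 8.11 with shTdp-43-1, 7.94 to 8.07 with shTdp-43-2 and 8.22 to 8.31 in control. Astrocyte markers had 2 lower of 16, Agt (8.16, 8.69 and 8.50 against 7.40, 7.48 and 7.42, difference -1.02, adjusted p = 0.00235) and the glutamate transporter Slc1a2 (-0.48, kept in 13). The astrocyte list averaged 9.94 to 9.98 with shTdp-43-1, 9.74 to 9.81 with shTdp-43-2 and 10.01 to 10.16 in control, so the hairpins did not overlap. Its other 14 members were not called, among them Gfap (0.27, adjusted p = 0.173) and Aqp4 (-0.15, adjusted p = 0.398). On arrays of whole dishes, fewer cells of a type and less RNA per cell cannot be told apart.

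Inhibitory neuron markers had 2 lower of 13, Sst and Gad1, which makes GABA (11.08, 11.07 and 10.98 against 10.31, 10.51 and 10.48, difference -0.61, SE 0.09, adjusted p = 0.00466). Gad2, the other enzyme that makes GABA, had a difference of -0.05 (adjusted p = 0.886). The list averaged 9.99 to 10.19 with shTdp-43-1, 9.94 to 10.00 with shTdp-43-2 and 10.06 to 10.18 in control, so the hairpins just overlapped. Excitatory neuron markers had 1 higher and 2 lower of 14, Neurod1 (0.74, kept in 15 of 16), Rorb (-0.58, kept in 15) and Camk2a. Their averages overlapped, at 10.08 to 10.32 and 10.09 to 10.24, with 10.20 to 10.36 in control. Progenitor markers had 2 higher of 16 (median 0.15). Nes, the filament nestin, read 8.36, 8.06 and 8.12 against 9.12, 8.98 and 8.81 (0.79, SE 0.11, adjusted p = 0.0042), and Hes1 was higher (0.36, kept in 3). That list averaged 8.87 to 8.97 with shTdp-43-1, 8.94 to 9.16 with shTdp-43-2 and 8.94 to 9.03 in control. Endothelial markers had 1 higher of 10, Emcn (0.55, SE 0.09), and averaged 7.18 to 7.40 and 7.26 to 7.49 with the hairpins, 7.20 to 7.22 in control. Markers of the oligodendrocyte lineage and of microglia had 0 calls in 13 each. No marker was at 0 on any array. Called members were 15.4% of inhibitory and 21.4% of excitatory neuron markers, 12.5% of progenitor and 10% of endothelial markers. The share over all genes was 8.04%, and each of these lists is short. The part of any cell type in the differences above was not tested.

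Genes on the lists of energy metabolism were lower where called, with 1 exception, beside 865 lower and 484 higher among all genes as deposited. Called members made up 26.3% of glycolysis and glucose transport and 15% of the tricarboxylic acid cycle. They were 10.5% of cholesterol synthesis and 3.03% of complex I, against 8.04% of all genes. Glycolysis and glucose transport had 4 lower and 1 higher of 19 (median -0.18), the lower ones being Eno2, the lactate carrier Slc16a1 (-0.52, kept in 15 of 16), Pgam1 (-0.50, kept in 13) and the glucose carrier Slc2a1 (-0.43, kept in 5). The tricarboxylic acid cycle list had 3 lower of 20 (median -0.11). Pdhb, a subunit of pyruvate dehydrogenase, read 10.52, 10.56 and 10.39 against 9.76, 10.02 and 9.92 (-0.59, SE 0.10, adjusted p = 0.00772), and Dlat (-0.44) and Sucla2 (-0.41) were kept in 8 and 6 alternatives. In the respiratory chain, complex I had 1 lower of 33. That gene was Ndufs1, its largest subunit, at 10.12, 10.01 and 9.95 against 9.29, 9.45 and 9.09 (-0.75, SE 0.11, adjusted p = 0.00432). Complexes II to IV with cytochrome c (23 genes) and the ATP synthase (16 genes) had 0 calls, with differences between -0.28 and 0.20. Cholesterol synthesis had 2 lower of 19, Hmgcs1 (12.66, 12.47 and 12.59 against 11.60, 11.89 and 11.78, difference -0.82, SE 0.10, adjusted p = 0.00232) and Tm7sf2 (-0.49, kept in 7).

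Translation genes were called in both directions. Called members were 5.08% of initiation and elongation factors and 10% of cytosolic aminoacyl-tRNA synthetases, against 8.04% of all genes. They were 2% and 2.67% of the cytosolic and mitochondrial ribosomal lists and 5.41% of proteasome subunits. Initiation and elongation factors had 3 lower of 59, a share like the 5.16% lower among all genes, namely Eif4g2 (-0.59, kept in 13 of 16), Eif4b (-0.49, kept in 12) and Eif4g1 (-0.44, kept in 15). Cytosolic aminoacyl-tRNA synthetases had 2 lower of 20 (median -0.18), Qars (-0.60, SE 0.10, adjusted p = 0.00814) and Yars (-0.69, kept in 12). The cytosolic ribosomal list had 1 higher of 50, Rpl7l1 (0.42, kept in 11). The mitochondrial ribosomal list had 1 higher, Mrps36 (0.40, kept in 8), and 1 lower, Mrpl9 (-0.35, kept in 3), of 75. Rpl7l1 and Mrps36 carry ribosomal names, and whether their products belong to ribosomes was not examined here. Proteasome subunits had Psmb10, of the immunoproteasome, lower (-0.62, SE 0.10, adjusted p = 0.00783) and Psmd11 higher (0.36, kept in 7) of 37.

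**Figure D4:**
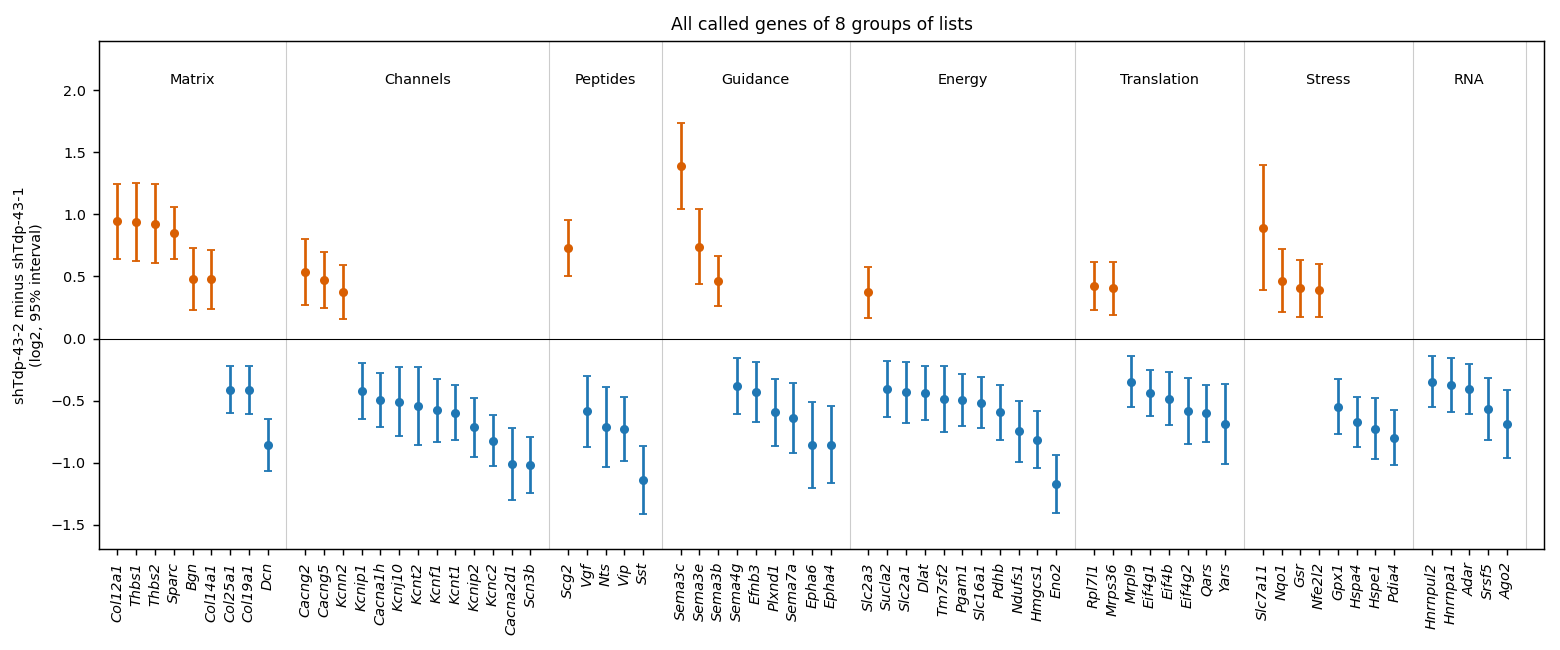
Difference between the hairpins (log2, shTdp-43-2 minus shTdp-43-1) with its 95% interval for called genes of 8 groups of lists. Every called member is drawn. The matrix group holds 6 genes above 0 and 3 below, channels 3 and 10, energy 1 and 10, translation 2 and 6, stress 4 and 4, and RNA 0 and 5. Uncalled members are not drawn, and over all genes tested 2.89% were called higher and 5.16% lower. The energy group takes in cholesterol synthesis and leaves out complexes II to IV (23 genes) and the ATP synthase (16 genes), which had 0 calls.

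RNA-handling genes are the group closest to the hairpins and to Tdp-43 itself. Genes that process small RNAs and hairpins had 2 lower of 21 (9.52%, against 8.04% of all genes). Ago2, the Argonaute that cuts the target of a hairpin, read 11.23, 10.82 and 11.14 with shTdp-43-1 and 10.44, 10.46 and 10.23 with shTdp-43-2 (-0.69, SE 0.12, adjusted p = 0.0105, kept in 15 of 16 and lost without replicate 3 of shTdp-43-1). The control mean was 10.54, so shTdp-43-1 was the hairpin above it. Adar, an RNA editing enzyme, was lower (-0.41, kept in 11). Genes of the interferon response and of double-stranded RNA sensing had 0 calls in 21, with differences from -0.30 to 0.36. At 8.04% of all genes, a list of this size can readily hold none. Samd9l, described above, was not on that list.

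Called members were 7.14% of hnRNPs and 6.67% of SR proteins, shares near the 8.04% of all genes. Of 28 hnRNPs, Hnrnpa1 (-0.38, kept in 6 of 16) and Hnrnpul2 (-0.35, kept in 4) were lower. Of 15 SR proteins, Srsf5 was lower (-0.57, kept in 14). Neuronal RNA-binding regulators of splicing and stability had 0 calls in 28, from -0.30 to 0.33.

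Known targets of Tdp-43 were compared at the gene level. Called members were 11.8% of genes whose splicing Tdp-43 controls and 6.25% of hosts of cryptic exons. They were 4% of long-intron targets and 11.5% of genes linked to ALS and FTLD. These shares lay on both sides of the 8.04% of all genes. Genes whose splicing Tdp-43 controls had 2 lower of 17, Kcnip2 and Hnrnpa1. Hosts of cryptic exons had 1 lower of 16, Adnp2 (-0.41, kept in 8 of 16). Long-intron targets with synaptic roles had 1 lower of 25, Cntn4 (-0.62, kept in 6). Genes linked to ALS and FTLD had 1 higher and 2 lower of 26, and Chmp2b, an endosomal sorting protein, was the higher one, at 10.79, 10.72 and 10.76 against 11.22, 11.45 and 11.15 (0.51, SE 0.10, adjusted p = 0.0145, kept in 15). The lower ones were Cyld (-0.48, kept in 6) and Hnrnpa1.

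Stress genes were called in both directions, also within the oxidative stress list. Called members were 21.7% of oxidative stress genes, 12.5% of heat shock proteins and 3.85% of endoplasmic reticulum and integrated stress genes. Among all genes 8.04% were called. Oxidative stress genes had 4 higher and 1 lower of 23 (median 0.09). Slc7a11, the cystine carrier, read 8.69, 9.0 and 9.56 against 9.59, 10.24 and 10.10 (0.89, SE 0.22, adjusted p = 0.0398), but its call was kept in only 4 of 16 alternatives. Nqo1 (0.47, kept in 6) and Gsr (0.40, kept in 8) were also higher, and Gpx1, a glutathione peroxidase, was lower, at 10.58, 10.59 and 10.43 against 9.95, 9.88 and 10.12 (-0.55, SE 0.10, adjusted p = 0.0105).

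Heat shock proteins on the list were lower where called. Cryab, the small heat shock protein described above, was higher and was not on the list. Listed heat shock proteins had 2 lower of 16, Hspe1 (-0.73, kept in 15 of 16) and Hspa4 (11.12, 11.20 and 11.18 against 10.38, 10.55 and 10.56, difference -0.67, SE 0.09, adjusted p = 0.00298). Endoplasmic reticulum and integrated stress genes had 1 lower of 26 (median -0.15), the disulfide isomerase Pdia4 (10.85, 11.05 and 11.03 against 10.06, 10.22 and 10.26, difference -0.80, SE 0.10, adjusted p = 0.00214). Among p53 targets 1 of 19 (5.26%) was lower, Ccng1 (-0.51, SE 0.08). Among apoptosis regulators 2 of 21 (9.52%) were lower, Cflar (-0.46, kept in 7) and Bcl2 (-0.36, kept in 9). Autophagy and lysosome genes (27 tested) and replication-dependent histones (10 tested) had 0 calls. The 9 lists without a call held 178 tested genes in all. With 8.04% of all genes called, any 1 list of such a size can readily hold none.

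Some lists held more called genes than the 4 named by rule, and the rest are given here after their values were seen, without a test of how they hold under the alternatives. Matrix genes also called were Sparc (0.85), the proteoglycan Bgn (0.48) and Col14a1 (0.48), higher, and Col19a1 (-0.42) and Col25a1 (-0.41), lower. Further axon guidance genes were Sema7a (-0.64), Plxnd1 (-0.60), Efnb3 (-0.43) and Sema4g (-0.38), lower, and Sema3b (0.46), higher. Among channels, Kcnt2 (-0.54), Kcnj10 (-0.51) and Kcnip1 (-0.42) were lower, and Kcnn2 (0.38) and Cacng5 (0.47) were higher. The remaining ones were all higher: Cdh18 (0.49), Pcdh18 (0.49), the neuronal glucose carrier Slc2a3 (0.37), which is the exception on the energy lists, and Nfe2l2, the regulator of the oxidative stress response (0.39).

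Exons were compared by usage, the difference of 1 probe set between the hairpins set against the difference of the rest of its gene. With limma's diffSplice, 675 of 248701 probe sets (0.271%) were called, in 557 of 16770 genes (3.32%). Usage with shTdp-43-2 was higher for 247 and lower for 428. This count rests on 1 spread per gene, shared by all its probe sets. On simulated arrays whose probe sets had unequal spreads, diffSplice also called many probe sets that carried no difference, nearly as many as were called here. The simulated noise was independent between probe sets, which may not hold on these arrays, so that number does not estimate the false calls here. The diffSplice calls, and the counts per gene and per list made from them, cannot be read as counts of exons that differ. When each probe set was tested against its own spread, 0 of 248701 were called in limma (smallest adjusted p = 0.323), while 15143 (6.09%) had an unadjusted p under 0.05. Of the 675, 647 were among those. Called probe sets were dimmer than those tested (median level 7.23 against 9.24) and spread more between replicates (median SD 0.310 against 0.213). Of the 675, 261 (38.7%) lay in genes called between the hairpins, against 8.43% of all probe sets tested. The exon values below are therefore given as a description of the arrays.

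In Frrs1l, a protein of AMPA receptor assembly, 7 of 12 probe sets were called, the most of any gene. Frrs1l as a whole differed by -1.11 (adjusted p = 0.000787). At 4 of its probe sets the hairpins overlapped, with differences from -0.24 to 0.28. One of these, probe set 5139991, read 9.47, 9.55 and 9.07 with shTdp-43-1, 9.57, 9.48 and 9.88 with shTdp-43-2 and 9.54, 9.17 and 9.40 in control. The other 8 differed by -2.05 to -1.05. Probe set 5074676 among them read 11.51, 11.33 and 11.18 with shTdp-43-1, 9.20, 9.47 and 9.21 with shTdp-43-2 and 11.59, 11.36 and 11.39 in control. So 8 probe sets were lower with shTdp-43-2 than in both other groups and 4 were not, all at levels above the dim limit of 6.07.

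Map7d2 and Aldh1a3 held the same kind of probe set. In Map7d2, 1 of 20 probe sets read 9.93, 10.40 and 10.08 against 9.82, 10.06 and 10.19, while the gene as a whole was 3.0-fold lower (usage difference 1.55, SE 0.31, own-spread adjusted p = 0.323). In Aldh1a3, probe set 4639286 read 10.49, 10.75 and 10.53 against 10.72, 10.81 and 10.79 (usage difference 1.69, own-spread adjusted p = 0.35). Probe set 4843776 of Aldh1a3 moved further than its gene, from 9.70, 8.69 and 8.87 to 5.33, 6.63 and 5.95 (usage difference -1.82, own-spread adjusted p = 0.379). The diffSplice calls of Map7d2 and Aldh1a3 were lost without replicate 1 or without replicate 3 of shTdp-43-1, and that of Map7d2 also without replicate 3 of shTdp-43-2.

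**Figure D5:**
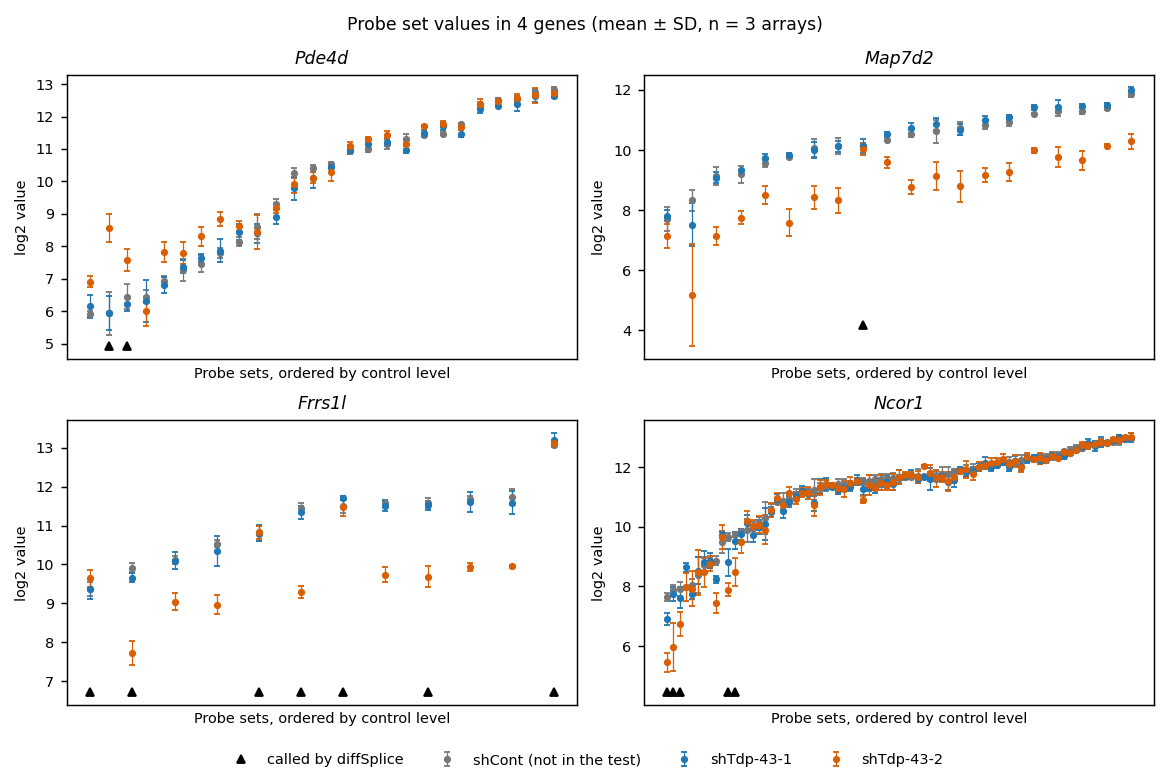
Log2 value of each probe set (mean ± SD, n = 3 arrays) in Pde4d, Map7d2, Frrs1l and Ncor1, ordered by control level, with triangles under probe sets called by diffSplice. In Frrs1l 4 probe sets with shTdp-43-2 stay at the level of the other groups and 8 lie below, and triangles mark 2 dim probe sets of 26 in Pde4d and 5 of 77 in Ncor1, while further probe sets of both genes did not overlap between the hairpins and were not called.

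Higher usage at dim probe sets was seen in Glra1 and Pde4d. In Glra1, a glycine receptor subunit, probe set 5543670 read 6.07, 5.38 and 5.21 with shTdp-43-1, 9.16, 8.82 and 7.94 with shTdp-43-2 and 5.46 to 5.81 in control (usage difference 2.52, SE 0.28, own-spread adjusted p = 0.35). That probe set averaged 5.61 in control, 5.55 with shTdp-43-1 and 8.64 with shTdp-43-2. It thus passed the dim limit of 6.07 only through shTdp-43-2. The gene value of Glra1 (0.88 higher, adjusted p = 0.00292) averages 8 probe sets with this one among them, so the 2 results are not independent. In Pde4d, a phosphodiesterase that breaks down cAMP, probe set 4815458 read 6.10, 5.35 and 6.37 against 8.92, 8.71 and 8.10, with controls at 6.69, 5.63 and 5.49 (usage difference 2.35, SE 0.21, own-spread adjusted p = 0.323). A second probe set of Pde4d, 5017646, read 5.98, 6.33 and 6.37 against 7.94, 7.49 and 7.28. Pde4d as a whole was not called (0.38, adjusted p = 0.0574). So diffSplice called 2 of its 26 probe sets, both near the dim limit with shTdp-43-1. Probe set 4815458 averaged 5.93 in control, 5.94 with shTdp-43-1 and 8.57 with shTdp-43-2, so it too passed that limit only through shTdp-43-2.

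Lower usage was seen at 5 of 77 probe sets of Ncor1, a nuclear corepressor, and at 5 of 28 of Nnat, the imprinted gene neuronatin. Neither gene was called as a whole (Ncor1 -0.08, adjusted p = 0.715, and Nnat -0.27, adjusted p = 0.0789). In Ncor1, probe set 4915975 read 8.01, 7.52 and 7.72 with shTdp-43-1, 5.61, 6.89 and 5.41 with shTdp-43-2 and 7.77, 7.82 and 8.09 in control (usage difference -1.72, SE 0.19, own-spread adjusted p = 0.408). Probe set 4365780 read 7.02, 6.67 and 7.0 against 5.26, 5.82 and 5.29. The 5 called in Ncor1 had usage differences of -1.72 to -0.81.

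The 20 probe sets named by size lay in 17 genes, and 17 of the 20 were in genes called as a whole. Beyond those described, higher usage was found in Cacna2d1 (1.98), Ap1s3 (1.72), Cdv3 (1.66), Cr2 (1.61) and Col12a1 (1.60). Lower usage was found in Lgals1 (-2.26), Col12a1 (-1.84), Plekhh1 (-1.79), Nap1l1 (-1.79), Adgrg6 (-1.77), Crhbp (-1.73), Snapc1 (-1.71) and Ap1s3 (-1.63). Some of these are probe sets that stayed dim while their gene rose. In Lgals1, for example, 1 probe set read 6.72, 6.86 and 6.48 against 5.78, 6.19 and 7.05 while the gene was 3.21-fold higher. In 12 of the 20 the lower of the hairpin means was under 6.07. The Ap1s3 probe set with higher usage averaged 6.01 in control, 4.83 with shTdp-43-1 and 7.69 with shTdp-43-2. It passed the limit only through shTdp-43-2. The Col12a1 probe set with lower usage averaged 6.05, 6.53 and 5.67 in the same order and passed only through shTdp-43-1. Usage did not overlap between the hairpins in any of the 20, which were chosen by the size of that difference. Own-spread p-values were 1.95e-05 to 0.0189 before and 0.323 to 0.678 after adjustment over all probe sets.

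Single arrays decided part of the exon count, which was 269 without replicate 3 of shTdp-43-1. The calls of Col12a1, Plekhh1 and Crhbp were lost when at least 1 single array was left out, and those of Frrs1l, Glra1, Pde4d, Ncor1, Nap1l1, Snapc1 and Lgals1 were kept in each such fit. By list, none of the 17 genes whose splicing Tdp-43 controls and none of the 16 hosts of cryptic exons held a probe set called by diffSplice. At 3.32% of all genes, lists of this size can readily hold none, so these zeros say nothing about the targets. Among others, 5 of 25 long-intron targets with synaptic roles and 3 of 27 presynaptic release genes held one. So did 8 of 65 axon guidance genes and 3 of 19 neuropeptide precursors. No allowance was made for the number of probe sets per gene, and these counts carry the limit of diffSplice given above. The exons behind the probe sets cannot be placed on the genome here, since the coordinates of the probe sets were not used.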

How the data were processed

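RNA of 9 samples was measured on Affymetrix mouse exon arrays. Per the labels, the authors deposited exon-level log2 values from RMA, run in Affymetrix Expression Console. The submitters' processing notes name the build mm9, while the version of each program is not given in the sources used here. Deposited arrays do not share 1 distribution, with table medians of 6.15 to 6.19 for shTdp-43-1 and 6.04 to 6.09 for the others, so scaling was varied. The value table holds 1256831 probe sets, of which 318760 carry 1 gene symbol in the platform annotation, 6684 several and 931387 none. Symbols were updated through RefSeq (4227 updated, 18006 current and 63 kept as given). Probe sets with 1 symbol and a 9-array mean of at least 6.07, the table median, were kept, and genes needed 3 or more (248701 probe sets, 16770 genes, median 12 per gene). The table has 0 columns of per-sample values outside the 9 arrays.

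Gene values were compared with limma 3.58.1 in R 4.3.3 (lmFit and eBayes, 6 arrays, 4 residual and 5.64 prior degrees of freedom) with Benjamini-Hochberg adjustment over all genes. Exon usage was compared with diffSplice and, added after seeing the data, with limma on each probe set minus the mean of the rest of its gene (own spread). Both scripts were tested on simulated data. With probe sets of unequal spread, diffSplice made many false calls there, and the own-spread test made few. The number of arrays limits precision, since 3 against 3 allows an exact permutation p of 0.1 at best for 1 gene. Named are Tardbp, the 15 genes higher and the 15 lower by size among called genes without overlap, 10 probe sets each way by size of usage difference, and up to 4 called genes per list. Clone-like, small RNA, Y-linked and X-inactivation names were passed over. Nnat, further probe sets of named genes, called genes beyond 4 per list and 6 genes placed against control were chosen after their values were seen. The start regions to print were also chosen with the gene results known. The comparison, the members and the gene lists were chosen with earlier results of these data known. Alternatives were the fit of all 9 arrays, dim filters, scalings, a replicate block, leaving out arrays, gene summaries and moderation. Promoters and coordinates come from RefSeq GRCm38.p6, not from the build of the arrays. Hairpin sequences and exon coordinates were not used here.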

Additional observations from a re-analysis of the deposited data

How the results depend on the processing

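The count of called genes, 1349 as reported, was 689 with the median over probe sets and 769 when genes needed only 1 probe set, and ran from 473 to 1291 when 1 array was left out. It was 2285 without both replicate 1 of shTdp-43-1 and replicate 3 of shTdp-43-2, an alternative chosen after seeing the data. The other settings stayed within 1.5 times, from 1099 with no dim filter to 1934 with all 9 arrays in 1 fit. The Tardbp difference had the other sign with the median over probe sets (-0.051) and ranged from -0.15 to 0.20 when 1 array was left out, and it was not called in any setting. Of 675 probe sets called by diffSplice, the count was 1095 with all 9 arrays, 1342 with the limit on dim probe sets at the 25th percentile of the table, 1527 with none, and 404 with it at the 75th. It was 269 to 944 without 1 array, 1421 without both arrays named above and 0 with own spreads on 6 or on 9 arrays. The limit at the 75th, both arrays out and own spreads were chosen after seeing the data. The 30 genes named by size kept their call in all 16 alternatives, and 35 of 91 listed genes did. None of the 20 named probe sets was called in all of theirs, since own spreads called none.

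Whether the replicate numbers pair the arrays could not be settled from these data, and the labels do not say. Deviations from the group means correlated by 0.593, -0.383 and 0.152 between arrays of the same number, and by 0.681 between replicate 2 of shTdp-43-1 and replicate 3 of shTdp-43-2. With the replicate block, 1461 genes and 1090 probe sets were called, against 1349 and 675 without it.

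The number of 3 arrays a group limits precision, and in 12 of the 20 named probe sets the lower hairpin mean was under the dim limit of 6.07.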
